A study of Mus musculus with 8 samples.

Results

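The genes described here encode the core machinery of DNA replication. They were chosen by gene symbol and not by a limit on expression, though earlier results of these data were known when they were chosen. The symbols taken in were those of the MCM helicases, GINS, CDC45, the origin recognition complex, CDC6, CDC7, geminin, the subunits of DNA polymerases alpha, delta and epsilon whose symbols carry a number, primase, PCNA, the RFC clamp loader, replication protein A, FEN1 and DNA ligase I. Of 14709 gene identifiers listed in either of 2 tables, 44 matched. Cdt1 and Gins2, whose symbols also match, were not analysed here. Genes were compared where their FPKM averaged 1 or more over the conditions of an experiment, and 43 of 9212 such genes in sorted cells and 44 of 11179 in overexpressing cells were replication genes.

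KLF3 is a Krüppel-like transcription factor, and RNA-seq was run on mouse embryonic stem cells (mESCs) from a C57BL/6(F) x 129/sv(M) cross, labelled with a developmental age of 3.5 days and grown in serum and leukaemia inhibitory factor. In the first experiment, 500 cells per sample were sorted by flow cytometry as KLF3-GFP-positive or KLF3-GFP-negative from a line that carried an N-terminal KLF3 fragment, lacking the DNA-binding domain, joined to GFP. The second experiment compared 72 h of induced KLF3 with 72 h of induced GFP. Each of the 4 conditions had 2 samples, 8 in all. The reporter was driven by the CAGGS promoter on a piggyBac construct that also carried DsRed, in colonies picked for DsRed, and since the fragment cannot bind DNA, its fluorescence reports the fusion protein and not functional KLF3. The overexpressing cells, KLF3-OE and GFP-OE, were clones of a line with the doxycycline-responsive activator M2rtTA at the R26 locus and an FRT site at Col1a1, into which a codon-optimised Klf3 or GFP had been placed. Klf3 itself was listed at 107.04 FPKM in negative and 122.29 FPKM in positive cells, and at 58.66 FPKM in GFP-OE and 47.76 FPKM in KLF3-OE cells. These values do not check the labels, since the cells were sorted by the protein of the fusion and the induced sequence was codon-optimised.

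Replication starts where the origin recognition complex (ORC), with CDC6 and CDT1, loads the hexamer MCM2-7 onto DNA as an inactive helicase, a step called licensing, which geminin blocks by holding CDT1. The kinase CDC7 and the cyclin-dependent kinases then recruit CDC45 and GINS, the helicase opens the DNA, replication protein A (RPA) covers the single strands, polymerase alpha with primase lays primers, RFC loads the PCNA clamp, and polymerases epsilon and delta extend the leading and lagging strands, whose fragments FEN1 and DNA ligase I trim and join. mESCs spend much of a short cell cycle in S phase, and E2F factors drive transcription of many of these genes.

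All values are FPKM, fragment counts scaled for transcript length and sequencing depth, which are per length and so can be set side by side between genes of a column. The authors deposited 1 average per gene and condition. The spread between the samples is therefore unknown, and no SD, interval or test stands beside a value. Differences were taken between log2(FPKM + 1) values of an experiment. A gene was said to have risen or fallen when it passed a fold of 2 or 0.5 on this scale, and a second limit of 1.5 and its inverse, 0.667, was also read. Since 1 FPKM is added, the change of a low gene is understated.

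The stretches of 170 bases before the start sites of 5 members are shown because they hold words of E2F and NF-Y motifs and because these members differed in how far they moved. Capitals mark TTTCCCGC or TTTGGCGC, which are E2F motif words, and CCAAT, the word bound by NF-Y, on either strand, so that GCGGGAAA, GCGCCAAA and ATTGG are the same words read on the other strand. No matches overlapped. The sequences run 5′ to 3′ along the gene's strand and come from RefSeq promoters of build GRCm38.p6.
Mcm5 (chr8:75109339-75109508, plus strand): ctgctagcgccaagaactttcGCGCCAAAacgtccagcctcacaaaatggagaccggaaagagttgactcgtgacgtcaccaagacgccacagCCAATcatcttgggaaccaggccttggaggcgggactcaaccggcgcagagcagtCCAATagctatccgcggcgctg
Mcm6 (chr1:128359706-128359875, minus strand): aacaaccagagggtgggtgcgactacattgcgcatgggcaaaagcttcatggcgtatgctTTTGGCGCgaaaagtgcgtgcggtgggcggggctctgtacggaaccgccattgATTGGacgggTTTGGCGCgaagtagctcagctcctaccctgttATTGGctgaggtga
Mcm7 (chr5:138171884-138172053, minus strand): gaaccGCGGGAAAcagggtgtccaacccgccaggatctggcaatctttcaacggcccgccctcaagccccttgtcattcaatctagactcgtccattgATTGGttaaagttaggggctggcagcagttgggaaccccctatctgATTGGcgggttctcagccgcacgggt
Gins3 (chr8:95633389-95633558, plus strand): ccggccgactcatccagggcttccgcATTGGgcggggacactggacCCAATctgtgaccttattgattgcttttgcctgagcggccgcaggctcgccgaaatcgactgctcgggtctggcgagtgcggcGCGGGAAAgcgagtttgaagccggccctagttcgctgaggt
Pola1 (chrX:93632156-93632325, minus strand): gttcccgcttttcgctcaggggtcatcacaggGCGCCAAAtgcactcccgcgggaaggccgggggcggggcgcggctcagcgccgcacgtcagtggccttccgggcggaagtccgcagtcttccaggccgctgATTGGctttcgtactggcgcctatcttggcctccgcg

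These words were looked for in windows from 250 bases before to 50 bases after each start site, of which 48 belonged to 38 of the 44 members. Of these 38 genes, 14 (36.8%) held at least 1 E2F word, against 1.80% of the 27025 genes with a promoter in the RefSeq set and 3.95% of the 7108 among them that were compared in sorted cells. TTTCCCGC was found in 9 members (23.7%, against 1.24% of all genes) and TTTGGCGC in 6 (15.8%, against 0.585%), with Mcm3 holding both words. CCAAT was found in 24 members (63.2%), against 41.1% of all genes and 43.9% of those compared in sorted cells. The word CCACACCC, which KLF factors bind, was in 0 of the 38 and in 4.09% of all genes, which says only that these letters are not in these windows. Members were rich in G and C like other expressed genes, with a median of 61.8% against 61.0% for the genes compared and 52.7% for all promoters. A match is a description of the sequence and not evidence that a factor binds there.

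In sorted cells, most replication genes were lower in KLF3-GFP-positive than in KLF3-GFP-negative mESCs. Of the 43 compared, 38 (88.4%) were lower, against 48.1% of all genes, and their median difference was -0.51 on the log2 scale, against 0.03 for all genes. Their summed level was 3028.72 FPKM in negative and 2047.16 FPKM in positive cells, which was 0.335% and 0.216% of the sum over all listed genes. The 6 (14.0%) that fell below 0.5-fold, against 8.32% of all genes, were Pola1, Orc2, Rpa1, Pold2, Mcm6 and Rpa2. The 1 (2.33%) that rose above 2-fold, against 13.8% of all genes, was Pold4. Past the second limit, 16 (37.2%) were lower, against 18.1% of all genes, and 3 (6.98%) were higher, against 24.3%. The other 24 lay between the limits of 1.5, so in the deposited values the most common picture was a small difference in the same direction. This depended on the scale. With quantile normalization, 55.8% of the members were lower past the limit of 1.5, against 23.7% of all genes. The level of a member in a bulk sample cannot tell fewer replicating cells from less RNA per cell.

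**Figure D1:**
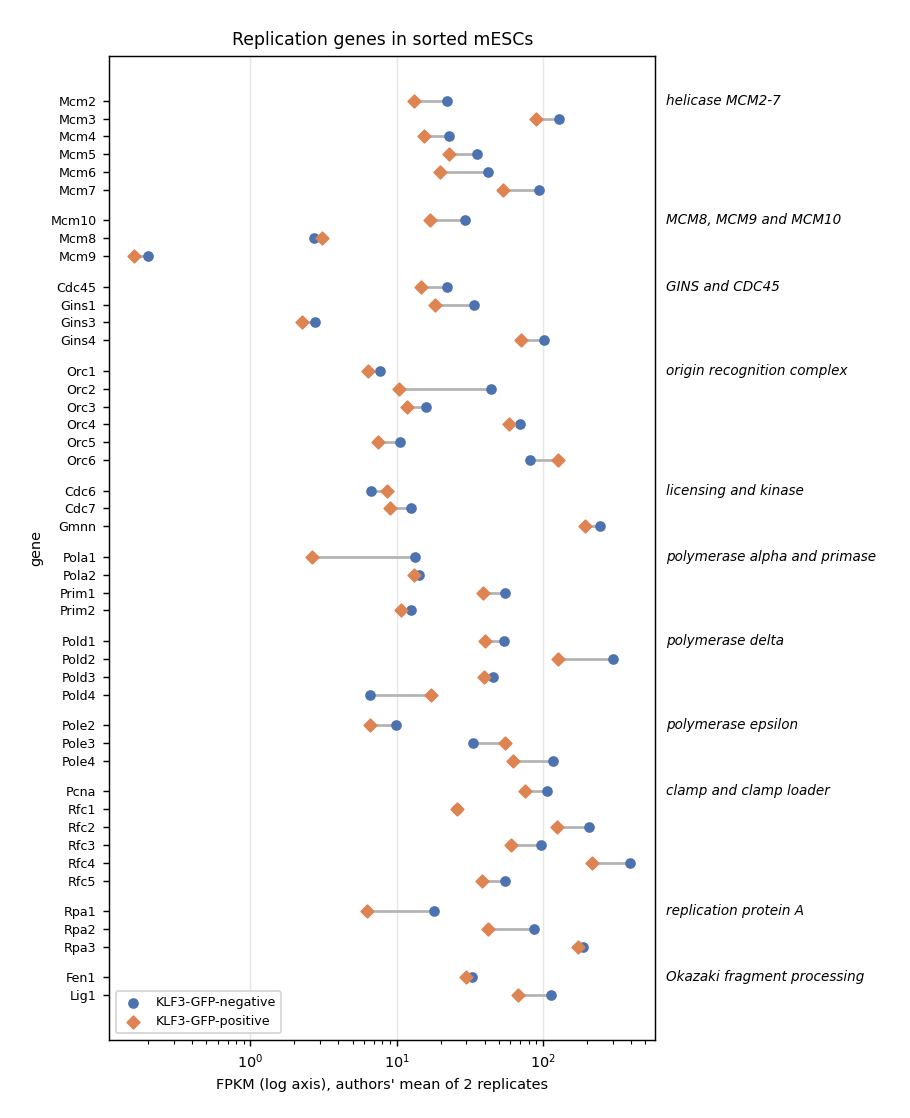
FPKM on a log axis of the 44 replication genes in KLF3-GFP-negative (blue circles) and KLF3-GFP-positive (orange diamonds) mESCs, grouped by complex; each point is the authors' mean of 2 replicates and the grey line joins the conditions of a gene. Orange lies left of blue in most genes, farthest in Orc2 and Pola1, and to the right in Orc6, Cdc6, Pold4, Pole3 and Mcm8.

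Among the licensing genes, Orc2, an ORC subunit at chr1:58462771-58505109 (mm10, minus strand), was at 44.28 FPKM in negative and 10.41 FPKM in positive cells. It fell by 1.99 on the log2 scale, while the other ORC subunits stayed within 1.5-fold or were higher. Orc1, an ATPase subunit, was at 7.69 and 6.37 FPKM in negative and positive cells, Orc3 at 15.95 and 11.79, Orc4 at 69.51 and 59.16, and Orc5 at 10.51 and 7.47. Orc6, the smallest subunit, went the other way, with 81.14 FPKM in negative and 126.50 FPKM in positive cells, a difference of 0.63. Orc1 was thus the scarcest and Orc6 the most abundant subunit in negative cells, although they form a single complex. The exons of Orc2 and Orc6 overlap those of Nif3l1 (1150 bases) and Vps35 (171 bases) on the other strand. Smart-seq2 reads carry no strand, so in sorted cells reads of the overlapping stretch cannot be told apart. Nif3l1 was at 34.07 FPKM in negative and 26.62 FPKM in positive cells, and Vps35 at 27.66 and 65.50 FPKM. Their part in the values of Orc2 and Orc6 was not tested.

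The other licensing genes differed little. Cdc6, the loader that acts with ORC, was at 6.68 FPKM in negative and 8.66 FPKM in positive cells, a difference of 0.33. Cdc7, the catalytic subunit of the kinase that activates the loaded helicase, was at 12.46 and 9.01 FPKM, a difference of -0.43. Gmnn, which encodes geminin, was one of the most abundant members, with 247.80 FPKM in negative and 194.22 FPKM in positive cells, a difference of -0.35. None of these passed the limit of 1.5.

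All 6 subunits of the MCM2-7 helicase were lower in positive cells, with differences from -1.07 to -0.53 and a median of -0.67. Mcm6 fell from 42.32 to 19.68 FPKM, a difference of -1.07. Mcm7 was at 93.92 and 53.75 FPKM in negative and positive cells, Mcm2 at 22.29 and 13.11, and Mcm5 at 35.48 and 22.72, which were differences of -0.79, -0.72 and -0.62. Mcm4 at 22.98 and 15.40 FPKM and Mcm3 at 129.44 and 89.37 FPKM lay just inside the limit of 1.5, with -0.55 and -0.53. The hexamer is a group in which every subunit was lower, though not by the same amount, and its summed level went from 346.43 to 214.03 FPKM. Mcm3 was the most abundant subunit in both conditions and Mcm2 the least. Mcm10, an initiation factor that binds the helicase, was at 29.35 and 16.86 FPKM, a difference of -0.76. Mcm8 and Mcm9, which form a separate helicase used in recombination, were low, with Mcm8 at 2.73 and 3.10 FPKM and Mcm9 at 0.20 and 0.16 FPKM, the only member not compared in sorted cells.

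The 4 listed partners of the active helicase were also all lower in positive cells, with a median difference of -0.55. Gins1 was at 33.99 FPKM in negative and 18.27 FPKM in positive cells, a difference of -0.86. Cdc45 was at 22.24 and 14.59 FPKM and Gins4 at 102.35 and 70.68 FPKM, with differences of -0.58 and -0.53, just inside the limit of 1.5. Gins3 was the scarcest of the 4, at 2.77 and 2.26 FPKM. Gins1, Gins3 and Gins4 encode subunits of the same complex. In negative cells their levels ran from 2.77 FPKM, near the middle of all listed genes, to 102.35 FPKM.

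Among polymerase genes the subunits of 1 enzyme moved apart. Pola1, the catalytic subunit of polymerase alpha at chrX:93304767-93632155 (minus strand), was at 13.37 FPKM in negative and 2.62 FPKM in positive cells and fell by 1.99 on the log2 scale. Its partner Pola2 was at 14.34 and 13.21 FPKM, and the primase genes Prim1 and Prim2 were at 54.72 and 38.96 FPKM and at 12.58 and 10.75 FPKM, with differences of -0.11, -0.48 and -0.21. The fall of Pola1 was therefore not shared by the genes whose products it binds. In polymerase delta, Pold2, an accessory subunit, fell from 301.42 to 126.55 FPKM (-1.25) and Pold4, the smallest subunit, rose from 6.59 to 17.11 FPKM (1.25). The catalytic subunit Pold1 was at 53.92 and 40.11 FPKM and Pold3 at 45.47 and 39.52 FPKM, with differences of -0.42 and -0.20. Pold2 was the second most abundant member in negative cells and Pold4 one of the scarcer ones, so they drew closer in positive cells. The exons of Pold4 overlap a gene model named AC109138.7 by 286 bases on the same strand, whose share in its value cannot be told apart.

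In polymerase epsilon, Pole4 was at 117.68 FPKM in negative and 62.50 FPKM in positive cells (-0.90), Pole3 at 33.09 and 54.73 FPKM (0.71), and Pole2 at 9.98 and 6.59 FPKM (-0.53). Pole3 and Pole4 pair through histone folds, yet they differed in opposite directions. The catalytic subunit Pole, which has no number in its symbol and so is not a member, was at 20.09 and 12.04 FPKM (-0.69).

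The clamp and its loader were lower throughout, with a median difference of -0.59 and a summed level of 889.89 FPKM in negative and 541.12 FPKM in positive cells. Rfc4 was the most abundant replication gene in both conditions, at 397.30 and 215.85 FPKM (-0.88). Rfc2 at 208.52 and 125.12 FPKM (-0.73) and Rfc3 at 96.94 and 60.29 FPKM (-0.68) also passed the limit of 1.5. Pcna, the clamp, was at 106.17 and 75.87 FPKM (-0.48) and Rfc5 at 54.92 and 38.21 FPKM (-0.51). Rfc1, the large subunit that makes the loader specific for PCNA, barely differed, with 26.04 and 25.78 FPKM (-0.01). The 4 small subunits were thus lower together, without the large one.

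Of the RPA trimer, the 2 larger subunits fell and the smallest differed by little. Rpa1, which makes most of the contacts with DNA, fell from 18.07 to 6.30 FPKM (-1.39) and Rpa2 from 86.68 to 41.90 FPKM (-1.03), while Rpa3 was at 189.02 and 174.69 FPKM (-0.11). The order of levels followed size in reverse in both conditions. Lig1, which seals Okazaki fragments, was at 113.28 and 67.19 FPKM (-0.74), and Fen1, the nuclease that trims them, at 32.54 and 29.77 FPKM (-0.12). The exons of Fen1 overlap those of Tmem258 by 130 bases on the other strand. Tmem258 was at 783.68 FPKM in negative and 1065.52 FPKM in positive cells, and its part in the value of Fen1 was not tested.

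The same tendency was seen in several lists of related genes, grouped by function. Among all genes compared in sorted cells, 48.1% were lower, 8.32% fell and 13.8% rose. Of 16 genes of nucleotide supply, 13 (81.25%) were lower in positive cells, 3 (18.75%) fell and 0 rose, with a median of -0.51. Those that fell were Dctpp1, which clears modified nucleotides, from 1344.66 to 532.85 FPKM, Umps of pyrimidine synthesis, from 33.50 to 14.51 FPKM, and Impdh2 of guanine nucleotide synthesis, from 513.06 to 239.22 FPKM. Of 13 genes of chromatin made behind the fork, 10 (76.9%) were lower, 1 (7.69%) fell and 0 rose, with a median of -0.43. Hells, a chromatin remodeller, fell from 210.95 to 78.01 FPKM, while the histone acetyltransferase Hat1 was at 261.67 and 136.87 FPKM and the histone chaperone Asf1b at 30.58 and 16.02 FPKM. These lists lay nearest to the replication genes in sorted cells.

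Other initiation and fork factors lay closer to zero, with a median of -0.20. Of 21 compared, 16 (76.2%) were lower, 1 (4.76%) fell and 0 rose, against 48.1%, 8.32% and 13.8% of all genes. Rnaseh2a, which removes ribonucleotides from DNA, fell from 332.70 to 162.12 FPKM, and the next in size were Dna2, a nuclease, at 6.36 and 3.28 FPKM and Mtbp, an initiation factor, at 7.80 and 4.44 FPKM. Of 30 mitotic genes, 23 (76.7%) were lower, 0 fell and 1 (3.33%) rose, with a median of -0.29. Mki67, a marker of cycling cells, rose from 1.95 to 5.13 FPKM, while Ttk was at 6.01 and 2.98 FPKM and Cdc20 at 239.83 and 148.29 FPKM.

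Regulators of entry into S phase did not share the tendency. A list of 16 genes held E2F factors and their partners, S-phase cyclins, Cdk2, Cdc25a and Skp2. Of these, 7 (43.75%) were lower, 2 (12.5%) fell and 1 (6.25%) rose, against 48.1%, 8.32% and 13.8% of all genes. Their median was 0.19. Ccne1, cyclin E1, fell from 141.21 to 65.12 FPKM and Tfdp2, a partner of E2F, from 33.60 to 14.60 FPKM, while Rb1, the retinoblastoma protein that restrains E2F, rose from 1.18 to 19.05 FPKM. Another list of 11 genes held CDK inhibitors, D cyclins and the kinase genes Cdk4 and Cdk6. Of these, 5 (45.5%) were lower, 3 (27.3%) fell and 3 (27.3%) rose, with a median of 0.26. Ccnd2, cyclin D2, rose from 0.98 to 19.64 FPKM and Cdkn2a, which encodes INK4a and ARF, from 9.44 to 37.50 FPKM, while Cdkn1c, encoding p57, fell from 22.93 to 5.30 FPKM. Rb1 and Ccnd2 rose further than any replication gene.

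Markers of cell type moved with the replication genes in sorted cells, where 48.1% of all genes were lower, 8.32% fell and 13.8% rose. All 10 mESC markers were lower in positive cells and 6 fell, Tdgf1 from 323.99 to 68.92 FPKM, Sox2 from 39.35 to 9.64 and Nanog from 20.80 to 5.03. They summed to 21960.70 FPKM in negative and 11486.00 FPKM in positive cells, and without Dppa5a to 1391.58 and 508.87 FPKM. All 11 primitive endoderm markers that could be compared rose, Dab2 from 0.78 to 232.84 FPKM, Col4a1 from 1.47 to 137.67 and Sparc from 33.46 to 981.01. The 12 listed summed to 44.61 and 1596.94 FPKM, and Foxa2 and Hnf4a among them stood at the table's lowest value in negative cells. Of 6 trophoblast markers compared, 3 rose and 1 fell, with a summed level of 39.46 and 398.53 FPKM over 9 listed and of 8.44 and 9.12 FPKM without Krt8 and Krt18, of which Cdx2 and Hand1 were at the lowest value in negative cells. Fibroblast feeder markers summed to 5.48 and 7.83 FPKM over 4 listed, and without Fbln1 to 0.68 and 2.07 FPKM. Markers of 2-cell-like cells summed to 39.20 and 40.40 FPKM over 2 listed, nearly all of it Eif1a. The other listed marker, Zscan4c, was at 0.21 and 0.10 FPKM. The part of these cell types in the lower replication genes was not tested.

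On overexpression of KLF3 the replication genes were divided. Of 44 compared, 25 were lower in KLF3-OE than in GFP-OE cells, against 59.4% of all genes, and their median difference was -0.25, against -0.18 for all genes. Their summed level was 3260.39 FPKM in GFP-OE and 3183.81 FPKM in KLF3-OE cells. This was 0.532% and 0.381% of the sum over all listed genes, which itself differed, with 612621 and 834882 FPKM. The 4 (9.09%) that fell, against 10.1% of all genes, were Pola1, Cdc7, Mcm4 and Orc1. The 1 (2.27%) that rose, against 6.59%, was Pold1. Past the second limit, 14 (31.8%) were lower, against 27.2% of all genes, and 4 (9.09%) were higher, against 15.8%. With 56.8% of the members lower and 9.09% fallen, these shares of the deposited values lie near those of all genes and are no result about the replication genes as a group.

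The columns of this experiment differed in scale, which bears on every direction near 0. Median-ratio scaling moved the median of all genes from -0.18 to 0, quantile normalization to -0.03 and scaling of each column to the same sum to -0.58, with 23, 30 and 36 members lower. Median-ratio scaling put 52.3% of the members lower, against 50% of all genes, and scaling to the same sum 81.8%, against 77.5%. Quantile normalization set the members further from all genes, with 68.2% lower against 51.9% and a median of -0.32 against -0.03. Over the deposited values and these scalings, 22 members were lower throughout, 8 were higher throughout (Mcm3, Orc6, Pold1, Pole3, Rfc2, Rfc3, Rfc4 and Lig1), and 14 changed sign. Of these 14, Prim1, Rfc5 and Gins3 were lower as deposited, and Gmnn, Gins1, Gins4, Mcm10, Orc4, Pold2, Pold4, Pole4, Rpa2, Rpa3 and Fen1 were higher. In sorted cells 0 members changed sign under these scalings.

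**Figure D2:**
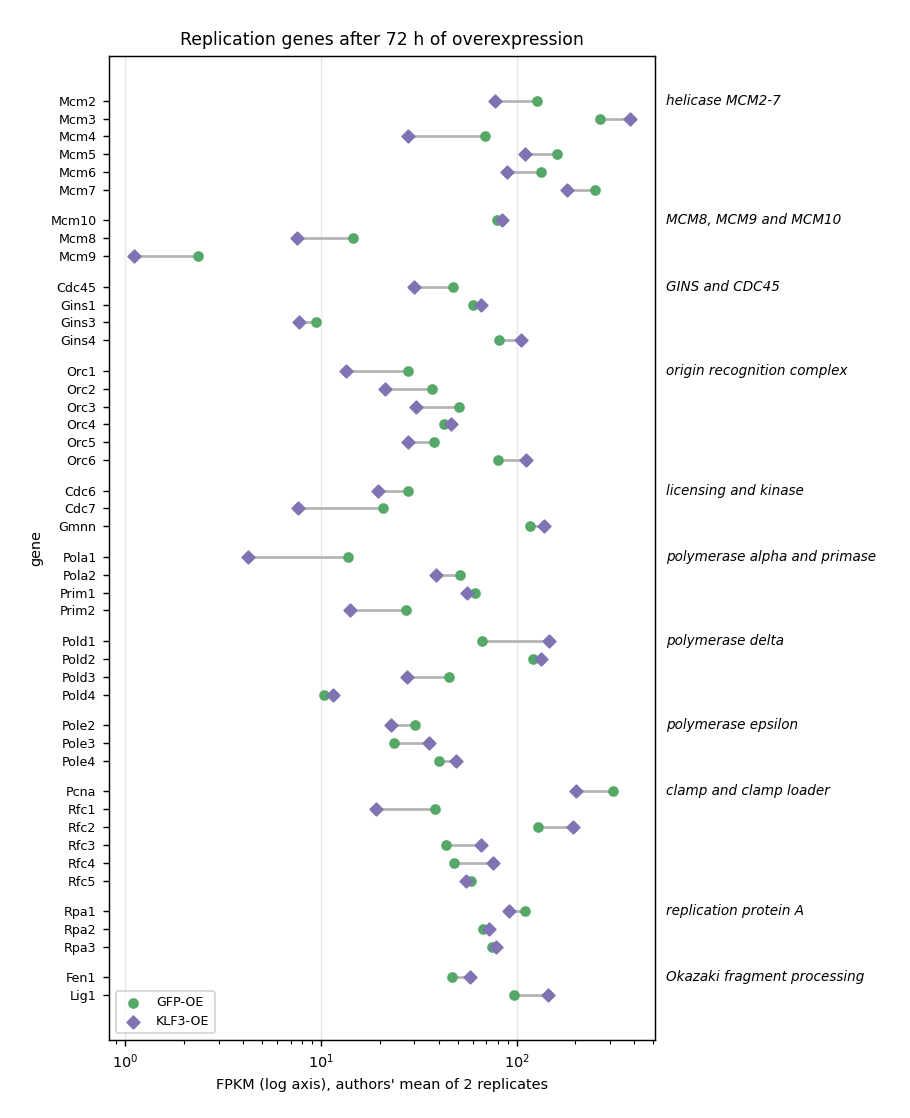
FPKM on a log axis of the 44 replication genes in GFP-OE (green circles) and KLF3-OE (purple diamonds) mESCs after 72 h of induction, grouped by complex; each point is the authors' mean of 2 replicates and the grey line joins the conditions of a gene. Purple lies left of green in most helicase and ORC genes and right of it in Pold1, Lig1, Rfc2, Rfc3, Rfc4 and Mcm3.

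Of the 4 falls, 2 were in licensing genes. Cdc7 fell from 20.66 FPKM in GFP-OE to 7.67 FPKM in KLF3-OE cells (-1.32). Orc1 fell from 28.00 to 13.40 FPKM (-1.01), a call lost under median-ratio scaling (-0.81) and quantile normalization (-0.87). Orc2 at 37.17 and 21.17 FPKM (-0.78) and Orc3 at 51.04 and 30.48 FPKM (-0.73) passed the limit of 1.5. Orc1 to Orc3 and Orc5, at 37.88 and 27.85 FPKM (-0.43), thus lay on one side, and Orc6, at 80.23 and 111.70 FPKM (0.47), on the other, while Orc4, at 42.35 and 46.30 FPKM (0.13), changed sign with the scaling. Nif3l1, which overlaps Orc2, was higher in KLF3-OE cells, with 24.95 and 44.14 FPKM. Cdc6 was at 28.05 and 19.64 FPKM (-0.49) and Gmnn at 117.79 and 138.72 FPKM (0.23).

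Of the MCM2-7 genes, 5 of 6 were lower in KLF3-OE cells, with a median of -0.55 that stayed negative under all scalings named above. Mcm4 fell from 69.26 to 27.95 FPKM (-1.28). Mcm2 was at 126.83 and 77.81 FPKM (-0.70), Mcm6 at 133.03 and 89.80 (-0.56), Mcm5 at 160.81 and 111.14 (-0.53) and Mcm7 at 251.13 and 181.44 (-0.47). Mcm3, the most abundant replication gene in KLF3-OE cells, was at 265.62 and 381.82 FPKM (0.52), the only subunit that was higher. In the unequal hexamer the summed level was 1006.68 FPKM in GFP-OE and 869.96 FPKM in KLF3-OE cells. Mcm8 was at 14.58 and 7.54 FPKM (-0.87), Mcm9 at 2.37 and 1.11 FPKM (-0.68) and Mcm10 at 79.91 and 83.83 FPKM (0.07). Cdc45 was at 47.14 and 29.95 FPKM (-0.64), Gins3 at 9.40 and 7.75 FPKM (-0.25), Gins1 at 60.04 and 65.79 FPKM (0.13) and Gins4 at 81.36 and 105.27 FPKM (0.37), so Cdc45 lay below the 3 GINS genes, whose signs all changed with the scaling.

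All 4 genes of polymerase alpha and primase were lower, with a median of -0.65, except that Prim1 was higher under median-ratio scaling (0.07). Pola1 fell from 13.72 to 4.24 FPKM (-1.49), the largest change of any replication gene in the deposited values of this experiment, though Mcm4 changed most with quantile normalization and with the span trend removed. Prim2 was at 27.18 and 14.03 FPKM (-0.91), Pola2 at 51.23 and 38.55 FPKM (-0.40) and Prim1 at 61.49 and 55.96 FPKM (-0.13). The catalytic subunit was again the one farthest from 0.

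In polymerase delta, Pold1, the catalytic subunit, rose from 66.23 to 146.17 FPKM (1.13), a call lost under quantile normalization (0.87) and scaling to the same sum (0.69). Pold3 was at 45.06 and 27.64 FPKM (-0.69), Pold2 at 121.54 and 133.81 FPKM (0.14) and Pold4 at 10.38 and 11.57 FPKM (0.14). Pold2 and Pold4, which passed the 2-fold limit in opposite directions in sorted cells, thus barely differed here. Pole3 was at 23.58 and 35.63 FPKM (0.58), Pole4 at 40.32 and 49.19 FPKM (0.28) and Pole2 at 30.46 and 22.72 FPKM (-0.41), and Pole was at 53.87 and 65.29 FPKM (0.27).

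The clamp loader split between its subunits, with Rfc1 lower and Rfc2, Rfc3 and Rfc4 higher under every scaling. Rfc4 was at 47.72 FPKM in GFP-OE and 75.46 FPKM in KLF3-OE cells (0.65), Rfc2 at 128.49 and 193.77 FPKM (0.59) and Rfc3 at 43.59 and 66.06 FPKM (0.59). Rfc1 was at 38.53 and 19.07 FPKM (-0.98) and Rfc5 at 58.45 and 54.90 FPKM (-0.09). Pcna was the most abundant member in GFP-OE cells, with 310.46 FPKM against 201.16 FPKM in KLF3-OE cells (-0.62). Rfc2 and Rfc4 are among the members whose exons overlap another gene, here on the other strand, and these libraries were made with a directional kit. Lat2, which overlaps Rfc2, was at 0.46 and 1.03 FPKM, and Eif4a2, which overlaps Rfc4, at 477.27 and 190.23 FPKM. Their part in the values of Rfc2 and Rfc4 was not tested. The RPA subunits Rpa1, Rpa2 and Rpa3 were at 109.92 and 92.05 FPKM (-0.25), 67.77 and 72.31 FPKM (0.09) and 75.20 and 78.89 FPKM (0.07). None of the falls of RPA seen in sorted cells was matched by a difference past 1.5-fold here. Lig1 was at 97.48 and 144.83 FPKM (0.57) and Fen1 at 46.94 and 57.67 FPKM (0.29).

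**Figure D3:**
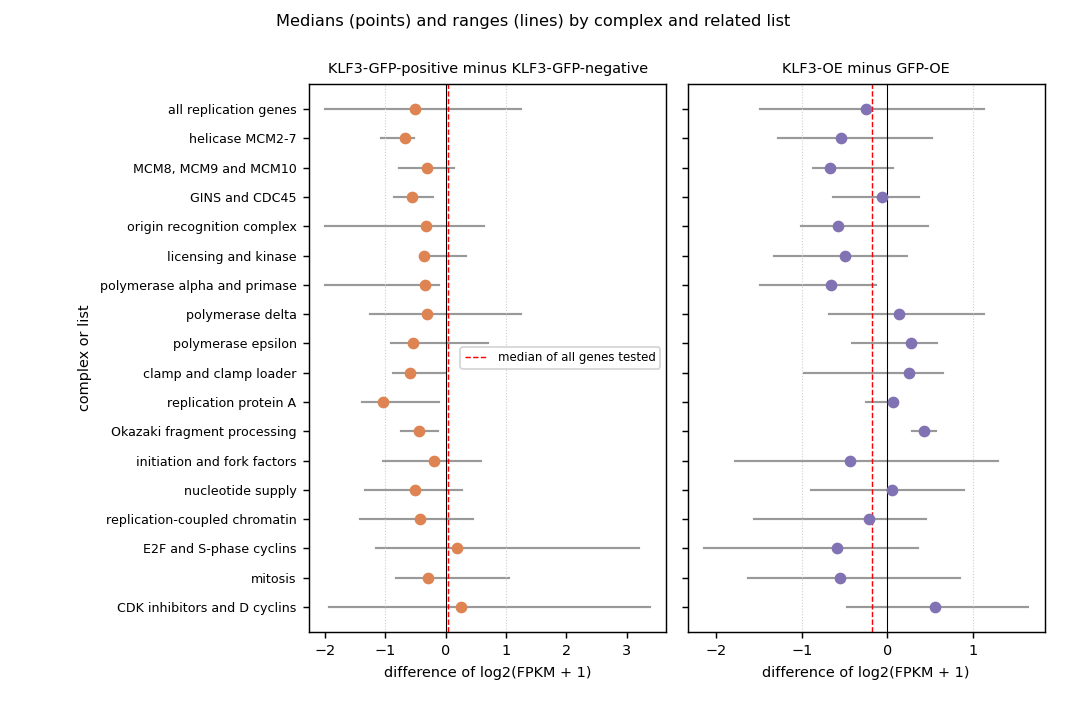
Median (point) and range (line) of the difference of log2(FPKM + 1) for each replication complex and related list, in sorted cells (left) and on overexpression (right); the red dashed line is the median of all genes compared and the dotted lines mark a fold of 2. In sorted cells every replication complex has its median left of the red line, while on overexpression the medians lie on both sides of it, those of GINS and CDC45, polymerases delta and epsilon, the clamp, replication protein A and Okazaki processing changing sign with the scaling.

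In the related lists the order was not that of sorted cells. Among all genes compared on overexpression, 59.4% were lower, 10.1% fell and 6.59% rose. Of 23 initiation and fork factors, 15 (65.2%) were lower in KLF3-OE cells, 6 (26.1%) fell and 2 (8.70%) rose, with a median of -0.43. The shares lower and risen lie near those of all genes. Topbp1, which activates checkpoint signalling and initiation, fell from 57.85 to 16.11 FPKM, Wdhd1, which ties polymerase alpha to the helicase, from 19.76 to 5.90 FPKM, and Atad5, which unloads PCNA, from 7.48 to 1.90 FPKM. Of 13 chromatin genes, 10 (76.9%) were lower, 2 (15.4%) fell and 0 rose, with a median of -0.22. Dnmt1, the maintenance DNA methyltransferase, fell from 51.84 to 16.94 FPKM and Hells from 68.06 to 24.10 FPKM, and Asf1b was at 35.24 and 19.42 FPKM. Of 16 nucleotide supply genes, 8 (50%) were lower and 0 fell or rose. Their median of 0.05 was -0.17 with quantile normalization and -0.39 with columns scaled to the same sum. Dut, which removes dUTP, was at 174.74 and 324.71 FPKM, Cad of pyrimidine synthesis at 44.55 and 23.53 FPKM and Atic of purine synthesis at 63.57 and 33.86 FPKM.

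As deposited, cell cycle regulators were more uniform in direction than replication genes on overexpression. All genes compared had shares of 59.4% lower, 10.1% fallen and 6.59% risen. Of the 19 E2F factors, partners, S-phase cyclins, Cdk2, Cdc25a and Skp2, 17 (89.5%) were lower, 2 (10.5%) fell and 0 rose. Their median was -0.59, and the share fallen lies near that of all genes. Tfdp1, a partner of E2F, fell from 112.06 to 24.59 FPKM and Rbl2, the pocket protein p130, from 4.83 to 1.13 FPKM, while E2f7, a repressive E2F, was at 4.29 and 1.76 FPKM. Of 30 mitotic genes, 25 (83.3%) were lower, 6 (20%) fell and 0 rose, with a median of -0.55. Anln, anillin of the contractile ring, fell from 32.86 to 9.98 FPKM, the centrosomal kinase Nek2 from 34.46 to 13.25 FPKM and the checkpoint kinase Bub1 from 66.84 to 26.70 FPKM. Of 11 CDK inhibitors, D cyclins and the kinase genes Cdk4 and Cdk6, 1 (9.09%) was lower and 2 (18.2%) rose, with a median of 0.55. Cdkn1c rose from 8.07 to 27.43 FPKM and Cdkn2a from 7.45 to 16.20 FPKM, while Cdkn2b was at 0.86 and 2.72 FPKM, at the limit of 2 on the log2(FPKM + 1) scale. Cdkn1c had fallen in sorted cells, so this inhibitor differed in opposite directions between the experiments.

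Markers of cell type moved here as well, where 59.4% of all genes were lower, 10.1% fell and 6.59% rose. Of 10 mESC markers, 7 were lower in KLF3-OE cells and 3 fell, Nanog from 254.52 to 102.59 FPKM, Esrrb from 137.73 to 60.31 and Klf4 from 46.99 to 20.22. The other 3 were higher, Utf1 at 203.68 and 394.69 FPKM, Dppa5a at 3793.78 and 6334.07 and Pou5f1 at 883.19 and 989.69. The list summed to 6466.42 and 8588.96 FPKM, and without Dppa5a to 2672.64 and 2254.89 FPKM. All 11 primitive endoderm markers compared rose, Col4a1 from 12.70 to 75.48 FPKM, Lama1 from 6.38 to 39.69 and Dab2 from 6.26 to 34.72, with a summed level of 194.64 and 789.20 FPKM over 12 listed. Of the trophoblast markers, 3 of 7 rose, Krt8, Krt18 and Hand1, and Tfap2c was at 26.24 and 13.10 FPKM and Tead4 at 10.71 and 6.80. The 9 listed summed to 104.78 and 546.79 FPKM, and without Krt8 and Krt18 to 41.89 and 30.86 FPKM, with Cdx2 at the lowest value in GFP-OE cells. The clones had been picked on feeder cells, whose markers summed to 32.14 and 31.36 FPKM over 8 listed. Of the 5 compared, Fbln1 fell from 19.29 to 7.79 FPKM and the other 4 were higher, among them Acta2 at 7.02 and 14.93 FPKM and S100a4 at 1.06 and 2.98 FPKM. The collagen genes Col1a1, at 0.23 and 0.29 FPKM, and Col1a2, at 0.18 and 0.40 FPKM, were too low to compare. So was Pdgfrb, at 0.72 and 0.58 FPKM, and Col3a1, Dcn, Lum and Postn were not listed. Markers of 2-cell-like cells summed to 77.67 and 68.20 FPKM over 8 listed, and without Eif1a to 8.95 and 4.29 FPKM. All 4 compared were lower and Zscan4f fell, from 3.17 to 0.68 FPKM. Their part in the values of the replication genes was not tested.

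The experiments did not share samples, so the members can be set side by side. Of the 43 genes compared in both, 22 (51.2%) were lower in both, against 26.8% of all 8887 genes compared in both. A further 16 (37.2%, against 21.3%) were lower in positive and higher in KLF3-OE cells, 3 (6.98%, against 23.8%) were higher in both, and 2 (4.65%, against 27.9%) were higher in positive and lower in KLF3-OE cells, counts that move with the sign changes on overexpression given above. In sorted cells 88.4% of the members were lower, against 48.1% of all genes. Both shares lower in positive cells therefore exceed those of all genes, and they do not measure agreement between the experiments. Pola1 was the 1 member that fell in both experiments, which was 2.33% of the members against 0.686% of all genes. Orc2, Mcm2 and Pola1 were the 3 that were lower past the limit of 1.5 in both, 6.98% against 4.17%. The clamp loader subunits Rfc2, Rfc3 and Rfc4 were the 3 that passed it downwards in sorted cells and upwards on overexpression, 6.98% against 2.99%, and 0 passed it the other way, against 4.47%. Across the 43 genes the differences had a Pearson r of 0.17 and a Spearman rho of -0.03, against 0.21 and 0.08 across all genes, as a description, since genes of a column share its samples and scale.

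**Figure D4:**
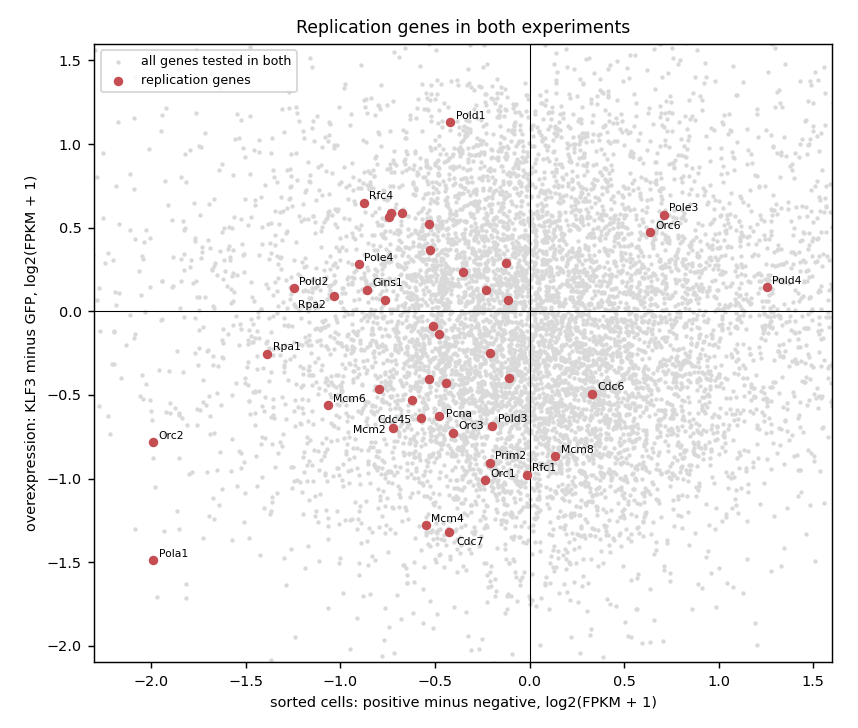
Difference of log2(FPKM + 1) of the replication genes (red) in sorted cells (x axis, positive minus negative) and on overexpression (y axis, KLF3-OE minus GFP-OE), over all genes compared in both experiments (grey, some lie outside the axes). Most red points lie left of 0 on the x axis and are spread on both sides of 0 on the y axis, with Pola1 and Orc2 at the far left.

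The differences on overexpression moved with the length of the gene. Genes were split at a genomic span of 20 kb, a limit chosen after the data were seen. The 22 members of under 20 kb had a median of 0.11, as all 5294 such genes had 0.12, and the 22 longer members had a median of -0.60, against -0.41 for all 5885 longer genes. Pola1 was the longest member, with a span of 327 kb, followed by Prim2 with 216 kb, and both were lower in KLF3-OE cells. Across the members the correlation of the difference with log10 span was r = -0.47 and rho = -0.48, against -0.37 and -0.40 for all genes. With a smooth trend with span removed, 30 of 44 members were lower, with a median of -0.33, and Pola1, Cdc7 and Mcm4 kept a fall past 2-fold, with -1.25, -1.31 and -1.39, while Orc1 did not (-0.80) and Pcna came to pass it (-1.11). The higher values of Pole3 (-0.08), Pold2 (-0.24), Pold4 (-0.58), Rpa2 (-0.12), Rpa3 (-0.51) and Fen1 (-0.14) turned negative.

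In sorted cells all genes together showed little trend with length. Members of under 20 kb had a median of -0.50 and longer ones of -0.53, against -0.01 and 0.07 for all genes. With the trend removed, 38 of 43 remained lower, with a median of -0.51. In 5 span groups of equal size over all genes, the 6 members of the shortest group had a median of -0.12, with 4 lower, and the members of the 4 longer groups had medians of -0.53 to -0.44. Across the members the difference had r = -0.46 and rho = -0.22 with log10 span, against 0.05 and 0.06 for all genes, with Pola1, the longest, among the lowest.

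**Figure D5:**
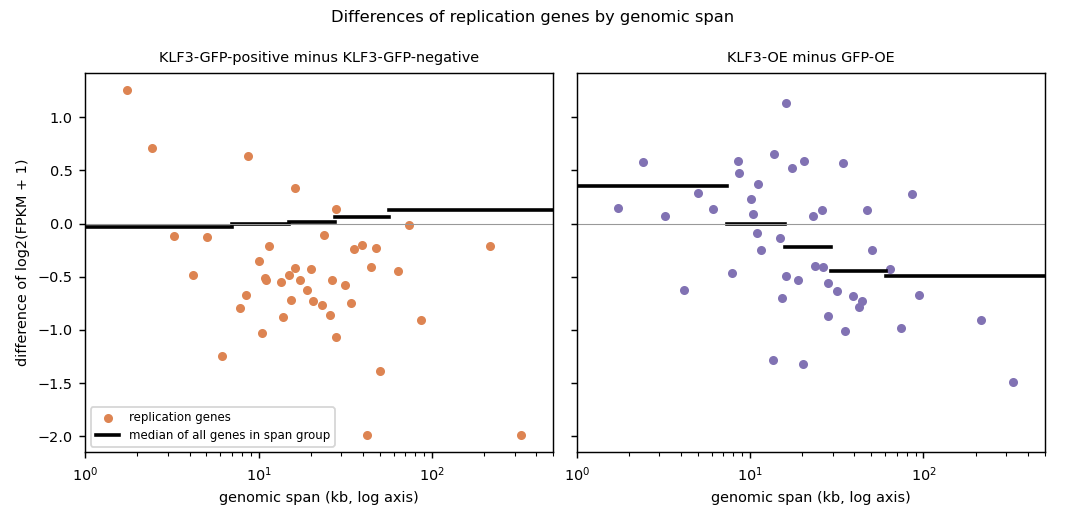
Difference of log2(FPKM + 1) of each replication gene (points) against its genomic span in kb (log axis), in sorted cells (left) and on overexpression (right); black bars are the medians of all genes compared in 5 span groups of equal size. On overexpression the bars step down from 0.35 to -0.49 and the points go down with them, while in sorted cells the bars stay near 0 and most points lie below them.

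Members were also split by what their promoters hold. In sorted cells, 12 of the 14 with an E2F word were lower, with a median of -0.53, and 20 of 23 without one, with a median of -0.48. The 2 E2F word holders that were higher were Cdc6 and Mcm8. On overexpression the 14 holders had a median of -0.48, with 10 lower, and the 24 others of -0.11, with 13 lower. The printed promoters cover only part of this spread, since their genes were all lower in both experiments as deposited. Among them Pola1 moved most and fell in both experiments. Gins3 moved least, lower by 0.21 in sorted cells and by 0.25 on overexpression, where its sign changed with the scaling. Holders that were higher are not printed, such as Cdc6 in sorted cells (0.33) and Pold1 on overexpression (1.13).

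Exons of 13 of the 44 members overlap those of another protein-coding gene in the GENCODE M21 annotation, most on the other strand. Without these members, a choice made after the data were seen, 28 of 31 were lower in positive cells, with a median of -0.48 and 5 falls, and 19 of 31 in KLF3-OE cells, with a median of -0.40 and 4 falls. The rise of Pold4 in sorted cells and the higher Rfc2 and Rfc4 on overexpression belong to the members left out. What remains of the clamp and loader after this, Pcna, Rfc1 and Rfc3, had a median of -0.62 on overexpression, against 0.25 for all 6.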

How the data were processed

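RNA-seq of 8 samples in 4 conditions was used. The authors aligned reads to mm10 with STAR (version 2.6.0 in the submitters' processing notes) and GENCODE annotation, computed FPKM with Cufflinks 2.2.1 and deposited 1 table per experiment, which lists protein-coding genes with the FPKM of each condition averaged over 2 replicates, rounded to 2 decimals and never below 0.1. Libraries of sorted cells were made by Smart-seq2 and those of overexpressing cells from poly(A) RNA with a directional kit. Depth per sample is unknown, so the precision of a value is unknown. The authors called genes by DESeq2 on counts that were not used here, and the planned limma test, which needs a value per replicate, could not be run.

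Differences of log2(FPKM + 1) were computed in Python 3.11.15 with pandas 2.3.3 where the FPKM of a gene averaged 1 or more, with the locus of highest mean for genes listed at several. Scripts were tested on simulated data. Gene loci were those of GENCODE M21, on the same assembly, and promoters those of RefSeq GRCm38.p6, matched by symbol. Named were all members, Pole, and the 3 genes with the largest absolute difference in each list and experiment, apart from some trophoblast, feeder and 2-cell-like markers, which are given in sums. Genes whose exons overlap a member, and the markers that carry or go against a sum, were added after values were seen. The members and lists were chosen with earlier results of these data known. The alternatives were a pseudocount of 0.1, a floor of 0.1, no minimum or a mean of 5 FPKM, median-ratio scaling, quantile normalization, scaling of columns to the same sum, removal of a lowess trend with genomic span (fraction 0.3), the sum over loci, and, added after the data were seen, leaving out members whose exons overlap another gene.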

Additional observations from a re-analysis of the deposited data

How the results depend on the processing

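No paired analysis was possible because the deposited columns are averages over replicates, and for the same reason no replicate could be left out. In sorted cells, the 6 falls and the rise of Pold4 kept their call under each other pseudocount, floor, minimum, scaling, trend removal and treatment of loci tried, and over all alternatives the members' median ran from -0.62 to -0.48. The count above 1.5-fold was 3, and 1 with quantile normalization. The count below 1/1.5-fold, 16 as deposited, ran from 11 to 24 over all alternatives. Its share was 55.8% with quantile normalization (against 23.7% of all genes) and 48.8% with scaling to the same sum (against 20.8%). Without members whose exons overlap another gene, 1 member was above 1.5-fold and 0 above 2-fold. On overexpression the members' median ran from -0.68 to -0.05 and the counts depended on the scaling. Of 14 members below 1/1.5-fold, 4 above 1.5-fold, 4 below 0.5-fold and 1 above 2-fold as deposited, median-ratio scaling gave 7 below 1/1.5-fold (15.9%, against 19.1% of all genes) and 8 above 1.5-fold (18.2%, against 22.2%). Quantile normalization gave 2 above 1.5-fold (4.55%, against 18.1%) and 0 above 2-fold (against 7.13%). Scaling to the same sum gave 23 below 1/1.5-fold (52.3%, against 49.8%), 15 below 0.5-fold (34.1%, against 27.2%), 1 above 1.5-fold (2.27%, against 7.19%) and 0 above 2-fold (against 2.71%). Without members with overlapping exons, 2 were above 1.5-fold and the clamp and loader median was -0.62. Pcna also fell with quantile normalization and with the span trend removed, and Mcm9 and Rfc1 with a pseudocount or floor of 0.1. The causes were not tested. The unknown depth and spread limit every value here.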
